A study of Mus musculus with 2 samples.

Results

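Open chromatin peaks around 6 transcription factor genes of cartilage, Sox9, Sox5, Sox6, Trps1, Nkx3-2 and Foxa3, were compared across nuclei gated as chondrocyte, osteoblast, reticular, mural and blood, beside the RNA of the same genes. A peak was a member when it lay within 500 kb of the gene start, or of the range of starts, that the files give for the gene. This gave 721 of the 203545 peaks of the series, or 0.354%: 155 around Sox9, 98 around Sox5, 164 around Sox6, 98 around Trps1, 50 around Nkx3-2 and 156 around Foxa3. Position chose the peaks around each gene, while the 6 genes were chosen with earlier results of these data known.

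The femurs were from mice of the genotype Prrx1-cre; R26R(tdTomato/+), taken on postnatal day 21. In these animals cre is driven by Prrx1 in limb mesenchyme, cells that descend from it carry red tdTomato, and tdTomato+ cells were sorted after the growth plate of the distal end had been taken off and the proximal end removed. About 15000 nuclei were loaded on the 10x Multiome platform, which reads RNA and transposase-accessible DNA (ATAC) from the same nucleus. There was 1 library of each kind, so no value has a replicate, no test was possible, and every interval below is an exact 95% interval that covers counting error only.

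SOX9 is the factor without which cartilage does not form, and it binds with SOX5 and SOX6, partner proteins that have no activation domain of their own, at enhancers of cartilage matrix genes. TRPS1 and NKX3-2 are repressors that act in chondrocytes, NKX3-2 in early and non-hypertrophic cells, and FOXA3, with its relative FOXA2, acts on genes of the hypertrophic stage. Genes of this kind often sit in broad gene-poor stretches in which distant enhancers are open in particular cell types, while the promoter itself can be open more widely.

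The comparison between cell types rests on all members, and the sequences below show 7 of them, picked by their values in these data. Each is 300 bases around the peak centre on the plus strand of mm10. The 7 are the assessed peak of highest chondrocyte ratio around Sox9, Sox5, Sox6, Trps1 and Foxa3, the peak of most counts in chondrocyte nuclei around Sox9, and the peak of highest mural ratio around Sox5. Names give the distance of the peak centre from the gene start, with plus for downstream. Capitals mark the words ACAAT for SOX factors, TGTGGT for RUNX factors and TGANTCA for AP-1, on either strand. N stands for any base, so what is called the AP-1 word here takes in TGAATCA and TGATTCA beside TGACTCA and TGAGTCA.
Sox9 +281.1 kb, chr11:113063176-113063475: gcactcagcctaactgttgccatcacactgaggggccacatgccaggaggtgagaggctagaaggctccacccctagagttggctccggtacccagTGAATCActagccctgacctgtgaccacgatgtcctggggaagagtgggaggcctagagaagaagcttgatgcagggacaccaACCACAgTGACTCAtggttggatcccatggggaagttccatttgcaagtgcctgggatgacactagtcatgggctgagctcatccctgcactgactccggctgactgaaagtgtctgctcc
Sox9 +302.6 kb, chr11:113084667-113084966: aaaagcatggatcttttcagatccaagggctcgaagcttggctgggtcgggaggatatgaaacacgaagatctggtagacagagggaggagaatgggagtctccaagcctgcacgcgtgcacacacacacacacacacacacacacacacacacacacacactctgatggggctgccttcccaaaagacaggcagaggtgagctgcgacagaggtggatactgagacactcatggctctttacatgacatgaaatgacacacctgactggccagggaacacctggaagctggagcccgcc
Sox5 +152.5 kb, chr6:144056873-144057172: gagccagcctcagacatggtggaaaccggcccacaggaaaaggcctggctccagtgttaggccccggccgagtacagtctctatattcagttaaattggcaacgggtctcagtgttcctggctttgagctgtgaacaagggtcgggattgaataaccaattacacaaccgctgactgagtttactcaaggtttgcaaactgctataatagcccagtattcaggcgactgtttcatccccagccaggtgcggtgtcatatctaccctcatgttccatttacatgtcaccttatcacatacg
Sox5 -60.9 kb, chr6:144270346-144270645: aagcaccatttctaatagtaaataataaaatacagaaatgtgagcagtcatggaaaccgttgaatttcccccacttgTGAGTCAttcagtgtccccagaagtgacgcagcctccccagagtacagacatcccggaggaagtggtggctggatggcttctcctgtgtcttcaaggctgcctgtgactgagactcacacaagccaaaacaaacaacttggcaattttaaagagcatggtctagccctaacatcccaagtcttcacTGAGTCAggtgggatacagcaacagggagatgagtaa
Sox6 -163.6 kb, chr7:116202208-116202507: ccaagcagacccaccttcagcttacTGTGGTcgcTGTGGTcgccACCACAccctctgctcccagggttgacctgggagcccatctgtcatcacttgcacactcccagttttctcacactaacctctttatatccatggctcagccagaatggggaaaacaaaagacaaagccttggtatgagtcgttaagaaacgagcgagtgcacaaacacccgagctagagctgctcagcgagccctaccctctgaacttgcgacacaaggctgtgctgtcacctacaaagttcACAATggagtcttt
Trps1 -189.3 kb, chr15:51079186-51079485: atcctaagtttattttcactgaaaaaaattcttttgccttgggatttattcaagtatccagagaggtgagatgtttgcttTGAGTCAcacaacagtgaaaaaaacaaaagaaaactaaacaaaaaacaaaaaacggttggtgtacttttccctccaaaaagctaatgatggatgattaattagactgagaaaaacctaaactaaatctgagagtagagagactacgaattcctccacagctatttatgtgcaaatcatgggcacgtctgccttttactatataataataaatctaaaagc
Foxa3 -22.9 kb, chr7:19046268-19046567: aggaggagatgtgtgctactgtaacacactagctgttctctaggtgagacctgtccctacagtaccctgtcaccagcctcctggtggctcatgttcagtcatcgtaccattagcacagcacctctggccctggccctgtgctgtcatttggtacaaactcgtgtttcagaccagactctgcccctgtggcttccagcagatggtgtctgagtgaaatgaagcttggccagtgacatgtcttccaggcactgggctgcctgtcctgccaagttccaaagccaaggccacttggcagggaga
The +302.6 kb peak of Sox9, the +152.5 kb peak of Sox5 and the -22.9 kb peak of Foxa3 held none of these words, and the first of these carries a run of CA repeats instead. The +281.1 kb peak of Sox9 held 2 AP-1 words and 1 RUNX word, and the -163.6 kb peak of Sox6 held 3 RUNX words and 1 SOX word. Both Sox9 peaks lie in introns of 2610035D17Rik, a non-coding RNA gene, both Sox5 peaks in introns of Sox5 itself, the -163.6 kb peak of Sox6 in an intron of Plekha7 while the Foxa3 peak overlaps exons of Sympk and its printed stretch lies between them. The Trps1 peak is intergenic.

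A nucleus was gated to a class when at least 3 markers of that class, each with at least 2 UMIs, stood above the level that free RNA would give. None of the 6 genes was a marker. Of 2684 nuclei within the limits, 844 were gated: 45 chondrocyte, 239 osteoblast, 301 reticular, 37 mural and 222 blood. A further 1784 nuclei, or 66.5%, passed no gate, 26 were set aside as other types and 30 that passed several gates were left out as possible doublets, with no doublet caller run. Of the 45 chondrocyte nuclei 6 had 3 or 4 markers, and 6 further nuclei had 2 and were not gated. The 15 chondrocyte markers, none at 0, summed to 70219 CPM (counts per 1000000, here of UMIs) in chondrocyte, 3950 in osteoblast, 2498 in reticular, 3567 in mural and 1713 in blood nuclei, with 13250 in free RNA. The 11 osteoblast markers summed to 9234 CPM in chondrocyte nuclei and 71525 in free RNA, and the part of free RNA in the results below was tested only by taking its profile off. The other gates had more nuclei at the limit of 3 markers, 52 osteoblast, 87 reticular, 19 mural and 99 blood. Summed ATAC counts were 2920626 in chondrocyte, 10885094 in osteoblast, 11502909 in reticular, 1447170 in mural and 6792456 in blood nuclei, and summed UMIs ranged from 166801 in mural to 2767215 in osteoblast nuclei.

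RNA of Sox9 was 442 CPM (396 to 493) in chondrocyte nuclei, 15.5 in osteoblast, 62.2 in reticular, 54.0 in mural and 14.9 in blood nuclei. Chondrocyte nuclei were thus 15.7-fold (12.6 to 19.7) above the other 3 stromal classes summed, and the intervals did not overlap. The profile of free RNA held 117 CPM of Sox9, and free RNA made up at most 18.9% of the UMIs of reticular and 26.9% of those of mural nuclei. Sox5 RNA was 576 CPM (522 to 633) in chondrocyte and 492 CPM (391 to 610) in mural nuclei, whose intervals overlapped, against 5.06 in osteoblast, 40.0 in reticular and 37.7 in blood nuclei. Sox6 RNA was highest in blood nuclei at 907 CPM (845 to 972), followed by chondrocyte nuclei at 430 CPM (384 to 480), with 56.4 in osteoblast, 23.3 in reticular and 65.9 in mural nuclei. In the SOX trio, then, chondrocyte nuclei stood apart from osteoblast and reticular nuclei for all 3 genes, from mural nuclei for Sox9 and Sox6, and from blood nuclei for Sox9 and Sox5.

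Trps1 RNA was 2625 CPM (2510 to 2745) in chondrocyte nuclei, 396 in osteoblast, 356 in reticular, 168 in mural and 349 in blood nuclei, with 136 in free RNA. Foxa3 RNA was 87.6 CPM (67.6 to 112) in chondrocyte nuclei from 65 UMIs, and 4 UMIs in osteoblast, 1 in reticular, 1 in mural and 0 in blood nuclei, a ratio of 56.0 (24.4 to 158), with 9.92 CPM in free RNA. Foxa3 thus had the lowest number of UMIs of the 5 genes detected but the largest ratio. No UMI of Nkx3-2 was found in any class, which allows up to 4.97 CPM in chondrocyte and up to 22.1 CPM in mural nuclei, so its RNA was not detectable at this depth. Against the other stromal classes, 15.6% of all 8962 assessed genes were at least 2-fold higher in chondrocyte nuclei and 18.7% at least 2-fold lower. Sox9, Sox5, Sox6, Trps1 and Foxa3 were all higher, and Nkx3-2 was not assessed.

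**Figure D1:**
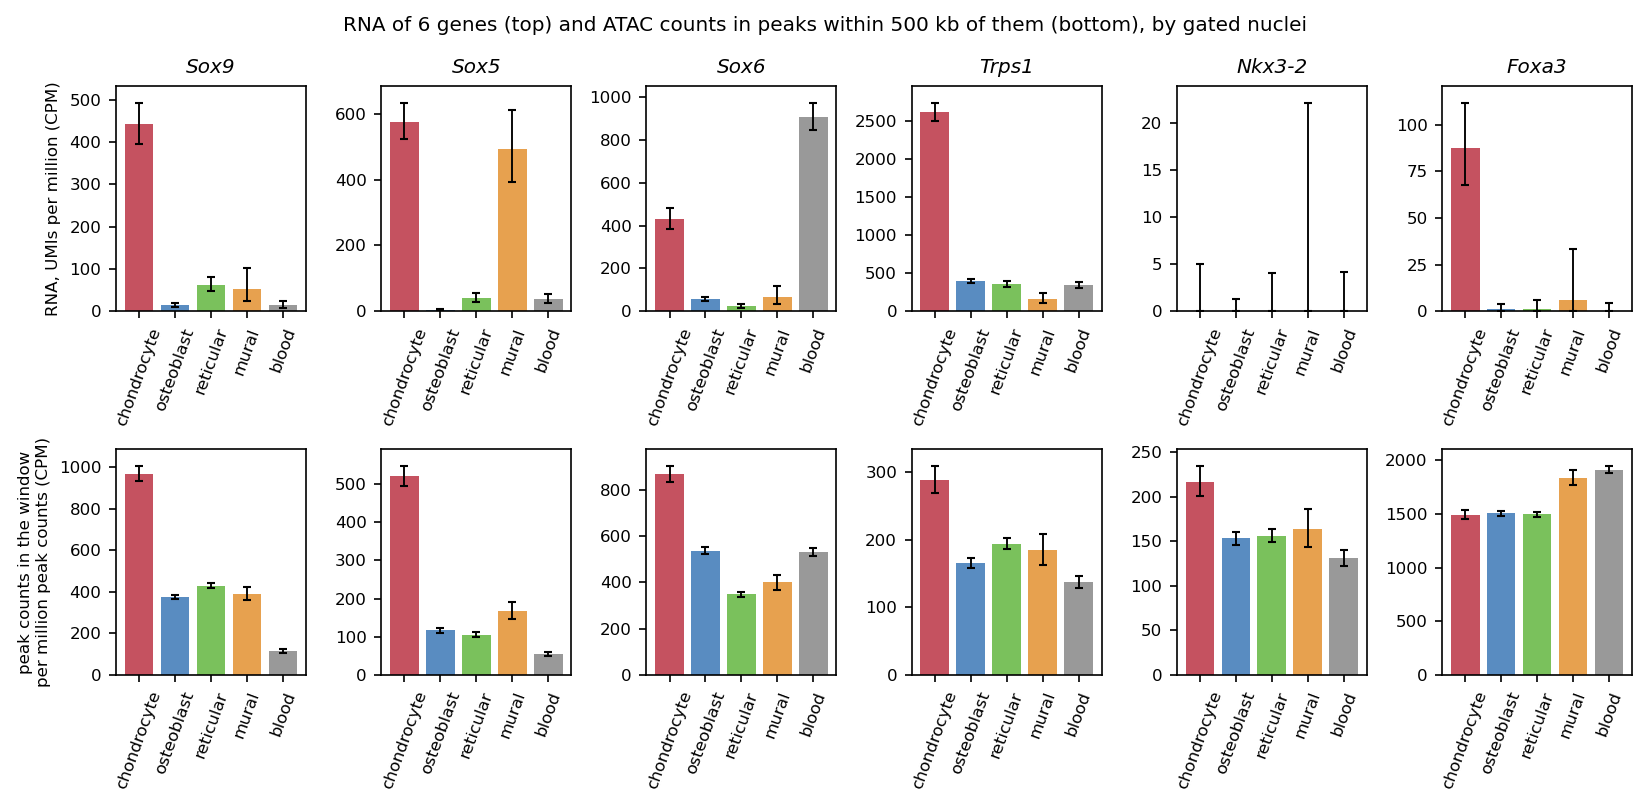
RNA of the 6 genes in CPM of UMIs (top) and ATAC counts of all peaks within 500 kb of each gene in CPM of peak counts (bottom), by class of gated nuclei. Bars are sums over the nuclei of a class and error bars are exact 95% Poisson intervals. Chondrocyte bars are highest for RNA of Sox9, Sox5, Trps1 and Foxa3, and for the peaks around every gene but Foxa3.

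The summed accessibility of the peaks around Sox9 was 971 CPM (here of peak counts, 935 to 1007) in chondrocyte nuclei, 375 in osteoblast, 429 in reticular, 390 in mural and 114 in blood nuclei. The chondrocyte value was 2.41-fold (2.31 to 2.52) that of the other stromal classes. Around Sox5 it was 521 CPM (495 to 548) in chondrocyte, 117 in osteoblast, 105 in reticular, 167 in mural and 54.5 in blood nuclei, a ratio of 4.57 (4.29 to 4.87). Blood nuclei were lowest in both windows. Around Sox6 it was 871 CPM (837 to 905) in chondrocyte, 539 in osteoblast, 349 in reticular, 400 in mural and 534 in blood nuclei, a ratio of 1.99 (1.90 to 2.07), and the intervals of osteoblast and blood nuclei overlapped.

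Around Trps1 the peaks held 289 CPM (270 to 310) in chondrocyte, 165 in osteoblast, 194 in reticular, 185 in mural and 138 in blood nuclei, a ratio of 1.61 (1.49 to 1.73). Around Nkx3-2 they held 217 CPM (200 to 234) in chondrocyte, 153 in osteoblast, 156 in reticular, 164 in mural and 131 in blood nuclei, a ratio of 1.40 (1.28 to 1.52), although no RNA of the gene was found. The peaks around Foxa3 showed no such difference. They held 1495 CPM (1451 to 1540) in chondrocyte, 1506 in osteoblast, 1497 in reticular, 1836 in mural and 1915 in blood nuclei, and the chondrocyte ratio was 0.982 with an interval of 0.951 to 1.01. Foxa3 lies in a gene-dense stretch, with 51 other genes in its window against 5 around Sox9, 6 around Sox5, 11 around Sox6, 1 around Trps1 and 3 around Nkx3-2. RNA and summed accessibility were both at least 2-fold higher in chondrocyte nuclei for Sox9 and Sox5. In mural nuclei they differed for Sox5, where the RNA was 4.54-fold (3.55 to 5.75) and the accessibility 1.06-fold (0.926 to 1.21) the level of the other stromal classes. On the log2 scale this last ratio was 0.08, and -0.25 against the mean of the other 4 classes. The earliest start of Sox5 in GENCODE lies outside the window, so peaks at that start are not in these sums.

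Single nuclei varied widely within each class. Among nuclei of at least 5000 ATAC counts, the lowest, median and highest level around Sox9 were 318, 1053 and 1950 CPM in 41 chondrocyte nuclei and 0, 346 and 1811 CPM in 224 osteoblast nuclei. In 275 reticular nuclei they were 0, 406 and 1016 CPM, in 33 mural nuclei 0, 378 and 800 CPM, and in 201 blood nuclei 0, 59.2 and 549 CPM. The classes overlapped, yet 37 of the 41 chondrocyte nuclei were above the upper quartile of osteoblast nuclei and 31 above that of reticular nuclei. Around Sox5, 39 were above the upper quartile of osteoblast nuclei and 40 above that of reticular nuclei, with a chondrocyte median of 548 CPM. A lone osteoblast nucleus reached 2967 CPM there. Around Foxa3, 5 of 41 chondrocyte nuclei were above the upper quartile of either class.

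**Figure D2:**
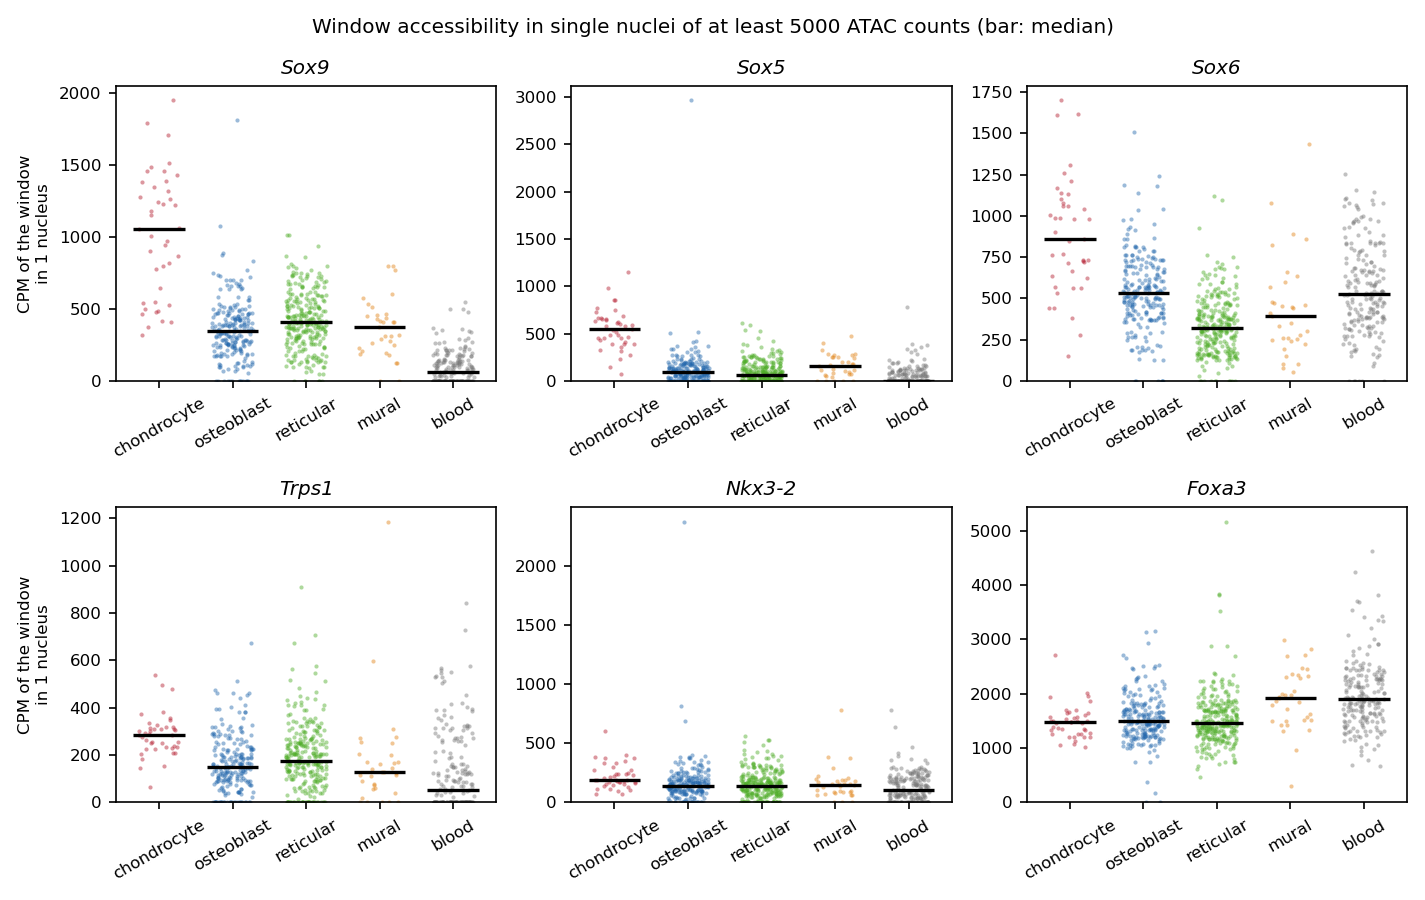
ATAC counts around each gene in CPM of peak counts in single nuclei with at least 5000 ATAC counts, by class. Each point is 1 nucleus and the bar is the median. Chondrocyte medians of 1053 CPM around Sox9 and 548 CPM around Sox5 are the highest of the 5 classes, while medians around Foxa3 run from 1461 to 1914 CPM.

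Peak by peak, 313 of the 721 members were deep enough to be assessed in chondrocyte nuclei, that is, they would hold at least 5 chondrocyte counts if the class did not differ from the other stromal nuclei. Of these, 109 (34.8%) were at least 2-fold higher in chondrocyte nuclei, against 16.8% of all 98562 peaks assessed. A further 45 (14.4%) were at least 2-fold lower, against 29.9% of all peaks. The median log2 ratio was 0.28 for the members and -0.30 for all peaks. The size of the share changed with the settings. With at least 20 counts required it was 8.99%, against 5.10% of all peaks, and with the 12 chondrocyte nuclei of at most 10% mitochondrial UMIs it was 12.2%, against 7.33% of all peaks.

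The higher peaks were spread unevenly over the genes. They were 37 of 77 assessed around Sox9, 16 of 30 around Sox5, 26 of 63 around Sox6, 8 of 30 around Trps1, 6 of 16 around Nkx3-2 and 16 of 97 around Foxa3. Around Foxa3 the share was 16.5%, near that of all peaks. A ratio of at least 10-fold was seen for 38 of the 313 members (12.1%), against 2.73% of all peaks, and these were 16 around Sox9, 10 around Sox5, 8 around Sox6, 3 around Trps1, 0 around Nkx3-2 and 1 around Foxa3. In the other classes the share among the members was below or near that of all peaks: 121 of 623 (19.4%) were higher in osteoblast nuclei against 23.4% of all peaks, 88 of 639 (13.8%) in reticular nuclei against 20.1%, and 16 of 168 (9.52%) in mural nuclei against 7.85%. Without the deepest nucleus of each class the mural share was 6%, against 7.98% of all peaks. In blood nuclei, set against the 4 stromal classes, 71 of 548 members (13.0%) were higher against 18.6% of all peaks, and 299 (54.6%) were lower against 49.3%. Around Sox9, 105 of 120 assessed peaks were lower in blood nuclei.

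**Figure D3:**
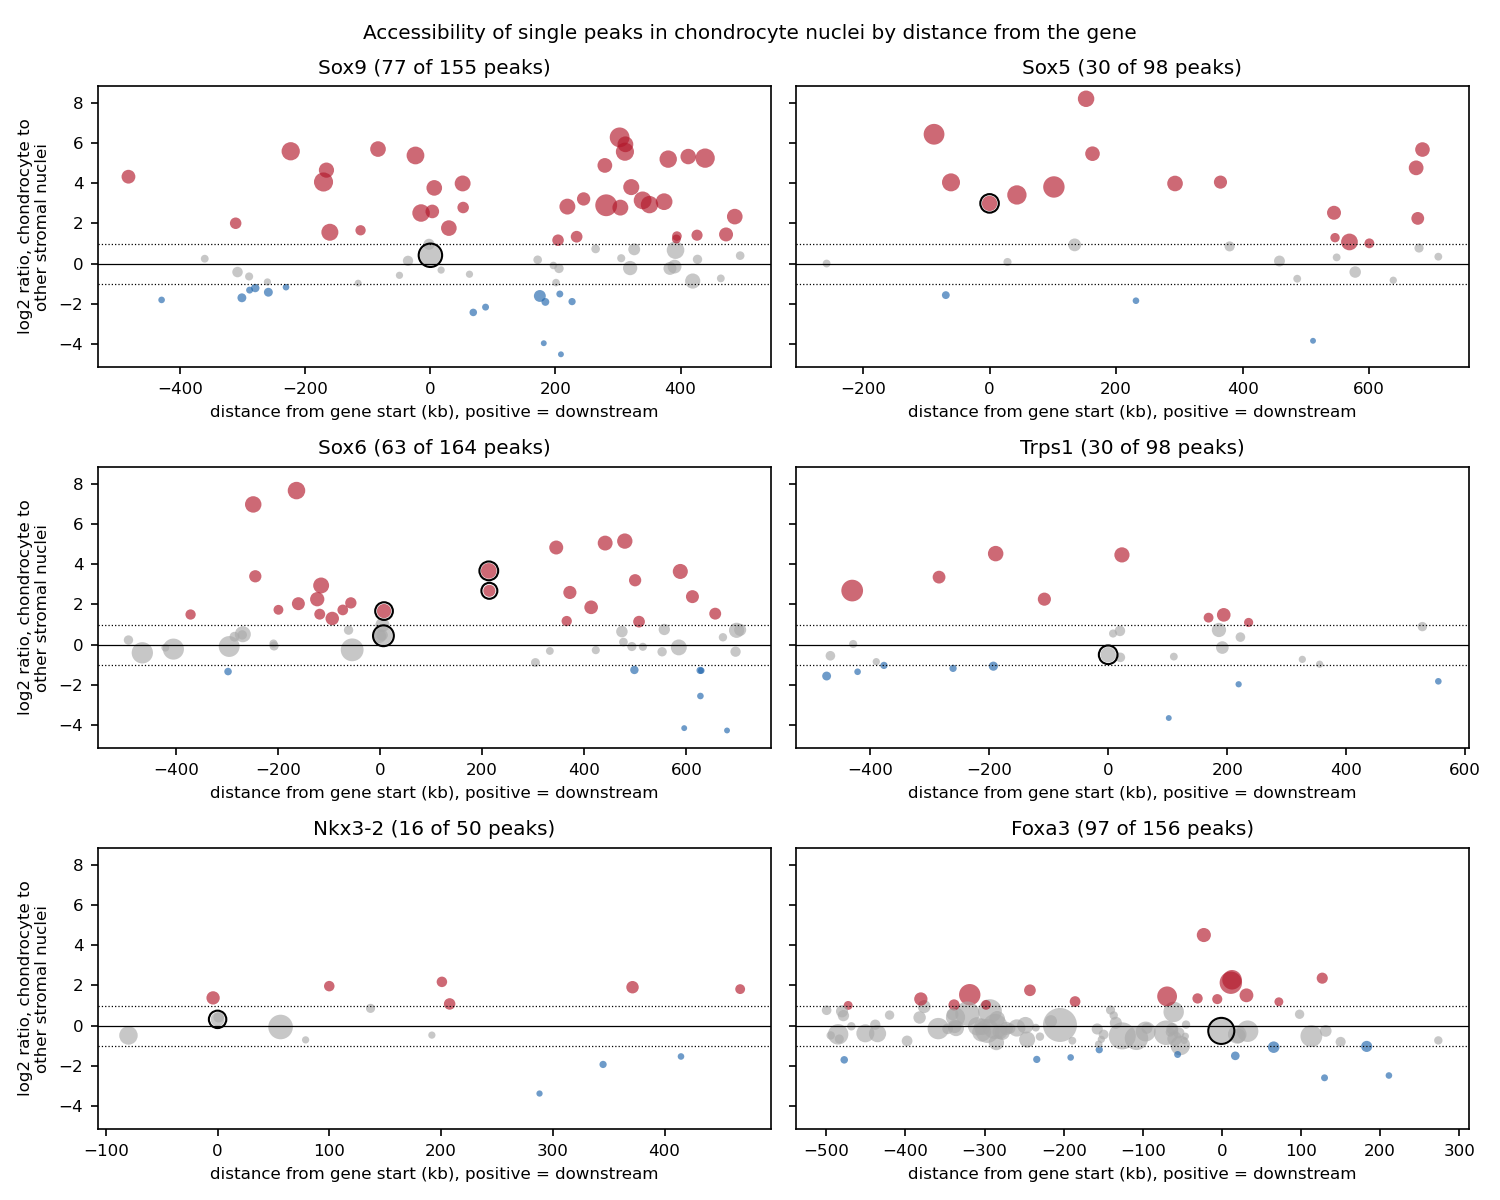
Log2 ratio of chondrocyte to other stromal nuclei for each assessed peak, by distance from the gene start in kb, for the 6 genes. The area of a point grows with the chondrocyte level, red and blue points are at least 2-fold higher and lower, and circled points are promoters. Sox9 has 37 red points on both sides of the gene, while the Sox9, Trps1, Nkx3-2 and Foxa3 promoters lie between the dotted 2-fold lines.

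Around Sox9 the higher peaks lay far out on both sides, 10 of 25 assessed upstream and 27 of 52 downstream, from 2.92 kb to 487 kb from the start. The peak with most chondrocyte counts, at +281.1 kb, held 33.9 CPM in chondrocyte nuclei, 3.86 in osteoblast, 4.69 in reticular, 8.29 in mural and 13.5 in blood nuclei. The +302.6 kb peak (chr11:113084438-113085195) held 27.4 CPM from 80 counts in chondrocyte nuclei, against 5 counts in osteoblast, 3 in reticular, 0 in mural and 0 in blood nuclei, a ratio of 81.6 (39.5 to 196). The +311.9 kb and -83.9 kb peaks followed with 16.4 and 16.1 CPM in chondrocyte nuclei and at most 1.38 CPM in any other class. The +302.6, +311.9 and -83.9 kb peaks were chosen for their chondrocyte ratio over the other stromal classes, so their low values in those classes are no finding. The promoter of Sox9 held 31.2 CPM in chondrocyte, 17.5 in osteoblast, 28.6 in reticular, 25.6 in mural and 3.24 in blood nuclei. It was open in all stromal classes, with a chondrocyte ratio of 1.34 (1.06 to 1.67).

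The Sox9 peaks of highest ratio in the other stromal classes were these. The -430.1 kb peak held 6.34 CPM in osteoblast nuclei from 69 counts and 2 counts in chondrocyte, 0 in reticular, 1 in mural and 0 in blood nuclei. The +65.7 kb peak held 21 counts in reticular nuclei and 1 in all other classes together. The +486.8 kb peak, in an intron of Slc39a11, held 19.3 CPM in mural and 16.1 CPM in chondrocyte nuclei, against 3.74 in reticular and 0.459 in osteoblast nuclei. RNA was measured too for the host genes whose position lies in the window, which does not include that of Slc39a11. 2610035D17Rik RNA was 104 CPM in chondrocyte nuclei, a ratio of 4.91 (3.55 to 6.80), and BC006965, which overlaps the promoter and the -83.9 kb peak, had 17 UMIs in chondrocyte nuclei and 1 in the other stromal classes.

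Sox5 distances are given from the upstream end of the range of starts in the files. GENCODE places an earlier start further upstream, outside the 500 kb window, so no peak at that start was measured. Peaks at minus distances can therefore lie in introns of the longest form. Its promoter peak at that end held 15.4 CPM in chondrocyte nuclei, 3.67 in osteoblast, 0.522 in reticular, 0 in mural and 0.442 in blood nuclei, a ratio of 7.98 (5.17 to 12.3), so this promoter, unlike that of Sox9, was itself 2-fold higher. The intronic +101.7 kb peak had most chondrocyte counts, with 32.5 CPM against at most 3.22 CPM in any other class. The +152.5 kb peak held 53 counts in chondrocyte nuclei and 1 in all other classes together, a ratio of 433 (74.3 to 17402), and the -87.7 kb peak held 89 counts in chondrocyte nuclei, 2 in osteoblast, 2 in reticular, 4 in mural and 0 in blood nuclei.

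Mural nuclei, whose Sox5 RNA interval overlapped that of chondrocyte nuclei, had 10 of 98 Sox5 peaks deep enough to be assessed, with a median log2 ratio of 0.55 against -0.22 for all peaks. The +152.5 kb and -87.7 kb peaks were chosen for their chondrocyte ratio over classes that include mural nuclei, so their low mural values are no finding. The promoter peak at the start used here held 0 of 1447170 mural ATAC counts, with an upper limit of 2.55 CPM. The earlier GENCODE start lies outside the window, so whether it was open in mural nuclei was not tested. The peak of highest mural ratio, at -60.9 kb, held 9.67 CPM from 14 counts in mural nuclei, a ratio of 2.95 (1.55 to 5.23), yet it held 22.3 CPM in chondrocyte nuclei. Of the 10 assessed Sox5 peaks it was the 1 (10%) that was at least 2-fold higher in mural nuclei, near the 7.85% of all peaks. The +568.8 kb peak held 17.3 CPM in mural, 18.8 in chondrocyte, 13.0 in reticular and 3.49 in osteoblast nuclei. With 37 mural nuclei, of which the deepest gave 12.1% of the ATAC counts, most Sox5 peaks were too shallow to be assessed in this class.

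Sox6 had 5 promoter peaks, and they differed between classes. The +213.1 kb peak held 16.1 CPM in chondrocyte nuclei and at most 2.11 in the others, a ratio of 12.8 (7.92 to 20.9) to the other stromal classes. The +214.2 kb peak held 8.56 CPM in chondrocyte and at most 1.74 in the others. The +7.9 kb peak was shared by chondrocyte (13.0 CPM) and osteoblast nuclei (7.90 CPM), and the +6.7 kb peak was open in all, from 8.39 CPM in blood to 22.3 CPM in chondrocyte nuclei. The +192.5 kb peak belonged to blood nuclei, with 60 counts or 8.83 CPM, against 2 counts in chondrocyte, 3 in osteoblast, 2 in reticular and 0 in mural nuclei. Blood nuclei held a similar number at +6.7 kb, 57 counts. In CPM chondrocyte nuclei were highest at that peak, with 22.3 CPM from 65 counts, against 20.6 CPM from 224 counts in osteoblast nuclei. The chondrocyte ratio there was 1.36 (1.03 to 1.77).

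The peaks of highest chondrocyte ratio around Sox6 lay upstream, in introns of Plekha7. The -163.6 kb peak held 61 counts or 20.9 CPM in chondrocyte nuclei, against 0 in osteoblast, 2 in reticular, 0 in mural and 2 in blood nuclei, and the -248.3 kb peak held 53 counts against 2, 0, 1 and 3 in the same order. Plekha7, which codes for a protein of cell junctions and was singled out after its values were seen, had 24 UMIs in chondrocyte nuclei and 4 in the other stromal classes, a ratio of 31.0 (10.7 to 123), and was too shallow to be assessed. The +479.5 kb peak inside Sox6 followed with 15.4 CPM in chondrocyte and 0.919 CPM in osteoblast nuclei. The peak with most chondrocyte counts, at -54.5 kb, was the promoter of 1110004F10Rik and was open everywhere, from 37.3 CPM in chondrocyte to 70.5 CPM in blood nuclei.

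The blood class was mixed, and Sox6 varied within it. The 87 nuclei positive for the erythroid markers had 2316 CPM (2157 to 2484) of Sox6 RNA and 647 CPM (613 to 682) in the peaks around it, while the 24 nuclei positive for B-lymphoid markers had 0 UMIs and 528 CPM (485 to 573) in the peaks. Trps1 varied in another way, with 810 CPM (700 to 931) of RNA and 270 CPM (245 to 298) in peaks in the 38 nuclei positive for macrophage and osteoclast markers, against 153 CPM (114 to 200) and 42.0 CPM (33.7 to 51.7) in erythroid nuclei. These subsets share nuclei where several lists were passed.

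The promoter of Trps1 at -0.1 kb was open in all classes, with 15.8 CPM in chondrocyte, 22.8 in osteoblast, 21.6 in reticular, 25.6 in mural and 15.3 in blood nuclei, although its RNA was 6.97-fold (6.51 to 7.47) higher in chondrocyte nuclei. A later start at +62.5 kb held 28 counts in blood nuclei and at most 2 in any stromal class. Of 30 assessed Trps1 peaks, 8 (26.7%) were at least 2-fold higher in chondrocyte nuclei and 8 (26.7%) at least 2-fold lower. Over all peaks these shares were 16.8% and 29.9%. The median log2 ratio was -0.31 around Trps1 and -0.30 for all peaks. The peaks higher in chondrocyte nuclei lay in the gene and far from it. The -430.5 kb peak held 33.6 CPM in chondrocyte nuclei, 1.75 in osteoblast, 9.13 in reticular, 0 in mural and 0.294 in blood nuclei. The -189.3 kb peak held 15.8 CPM in chondrocyte and at most 1.19 CPM in any other class, a ratio of 23.5 (13.0 to 44.4). The +23.0 kb peak was shared by chondrocyte (15.1 CPM) and blood nuclei (8.24 CPM) and was at 0 counts in reticular nuclei. The +186.1 kb peak was highest in mural nuclei, with 26.9 CPM against 13.0 in chondrocyte and 10.6 in reticular nuclei.

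Nkx3-2 had no peak of 10-fold ratio. Its promoter held 12.3 CPM in chondrocyte, 8.54 in osteoblast, 11.8 in reticular, 6.22 in mural and 2.94 in blood nuclei, a chondrocyte ratio of 1.23 (0.844 to 1.76), so the promoter was accessible in all stromal classes without detectable RNA. The +371.3 kb peak was higher in chondrocyte nuclei, with 9.24 CPM against 1.75 in osteoblast, 3.13 in reticular, 2.76 in mural and 0.883 in blood nuclei, a ratio of 3.73 (2.28 to 5.98). A peak over the exon at +2.7 kb had the highest blood ratio around Nkx3-2, at 1.91 (0.956 to 3.64). It was too shallow to be assessed in chondrocyte nuclei, with 16 counts in chondrocyte, 6 in osteoblast, 6 in reticular, 3 in mural and 15 in blood nuclei.

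Near Foxa3, the promoter peak lies upstream of the Foxa3 start without covering it, and it covers the start of Sympk, a gene for RNA processing. It held 41.1 CPM in chondrocyte, 49.2 in osteoblast, 47.7 in reticular, 58.7 in mural and 93.6 in blood nuclei. Which of the 2 genes this accessibility belongs to was not tested. Foxa3 RNA in turn was 56.0-fold higher in chondrocyte nuclei. Over the whole Foxa3 window, 16.5% of assessed peaks were at least 2-fold higher in chondrocyte nuclei, against 16.8% of all peaks. Within 50 kb of Foxa3, a span of few peaks, 6 of 14 assessed peaks were higher. Among them were the peak at -22.9 kb, with 12.7 CPM against at most 1.01 CPM in the others, and that at +12.8 kb, with 26.7 CPM in chondrocyte, 8.18 in osteoblast, 3.56 in reticular, 0.691 in mural and 4.42 in blood nuclei. The latter held 78 chondrocyte counts.

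**Figure D4:**
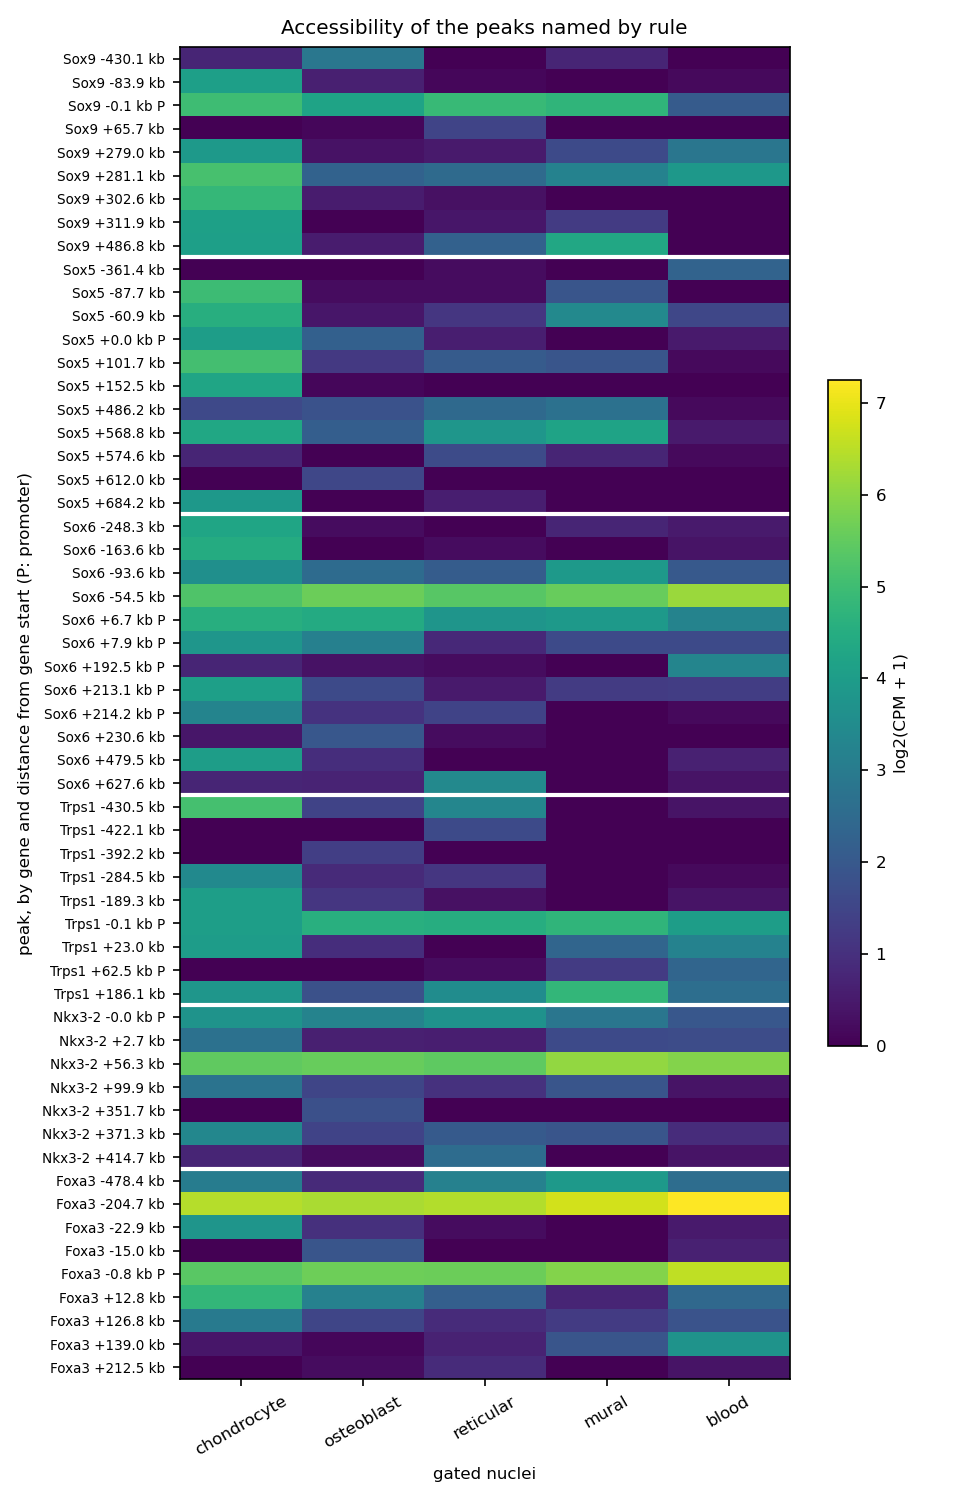
Accessibility of the peaks chosen by a fixed rule (promoters, most counts, highest ratio in each class), as log2(CPM + 1), with rows ordered by gene and by distance from the gene start and P marking promoters. The Sox9 rows at -83.9, +302.6 and +311.9 kb, chosen for their chondrocyte ratio, are bright in the chondrocyte column only. Promoter rows of Sox9, Trps1 at -0.1 kb and Foxa3 are bright across the stromal columns, while the promoter row of Trps1 at +62.5 kb is not. The Foxa3 promoter row is a peak upstream of the Foxa3 start that covers the start of Sympk.

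By position, the share of assessed members that were higher in chondrocyte nuclei was 44.8% of 29 within 10 kb of the start or range of starts, 42.9% of 21 at 10 to 50 kb, 33.3% of 33 at 50 to 100 kb, 38.8% of 85 at 100 to 250 kb and 29.7% of 145 at 250 to 500 kb. By annotation it was 47.4% of 76 in introns of other genes, 40.5% of 42 in introns of the gene, 37.6% of 93 between genes, 14.0% of 57 at promoters of other genes, 20% of 30 in exons of other genes, 44.4% of 9 at promoters of the 6 genes and 50% of 6 in their exons. Over all peaks the share was 16.8%, and it was not divided there by distance or annotation. Of the 57 assessed peaks at promoters of other genes, 40 lay around Foxa3. The 6 peaks just inside the 500 kb limit held 0 to 4.45 CPM in chondrocyte nuclei, and the nearest 6 outside held 0.685 to 12.3 CPM.

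Consensus words were counted in the 301 bases around each peak centre, on both strands, and words of different factors could share bases. The SOX word was in 249 of 721 members (34.5%) and in 36.8% of all peaks. Among members higher in chondrocyte nuclei it was in 27 of 109 (24.8%), against 68 of 204 (33.3%) of the other assessed members, and over all peaks the same shares were 26.4% and 35.2%. Pairs of SOX words facing each other within 10 bases were rare, in 2 members and 0.540% of all peaks. The AP-1 word was in 172 members (23.9%) and 20.4% of all peaks, and it was in 30 of 109 (27.5%) of the higher members against 29 of 204 (14.2%) of the others. Over all peaks the AP-1 shares were 35.4% and 14.2%. These counts carry no test, and the genes differed: the SOX word was in 5 of 37 higher peaks around Sox9 and in 5 of 6 around Nkx3-2, and the AP-1 word was in 15 of 37 around Sox9 and in 1 of 8 around Trps1.

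E-box words (CANNTG) were in 79.8% of the higher members and 70.1% of the other assessed members. RUNX words were in 33.8% of members and 32.4% of all peaks, E-box words in 77.9% and 79.6%, the CTCF word CCCTC in 60.1% and 58.6%, and the NFI word (TGGC and GCCA with 5 bases between) in 1.25% and 1.59%. The median GC content was 48.2% in the members and 47.8% in all peaks, and ranged from 40.2% around Trps1 to 56.8% around Foxa3. Peaks were of usual width, with a median of 873 bases against 875 bases over all peaks.

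**Figure D5:**
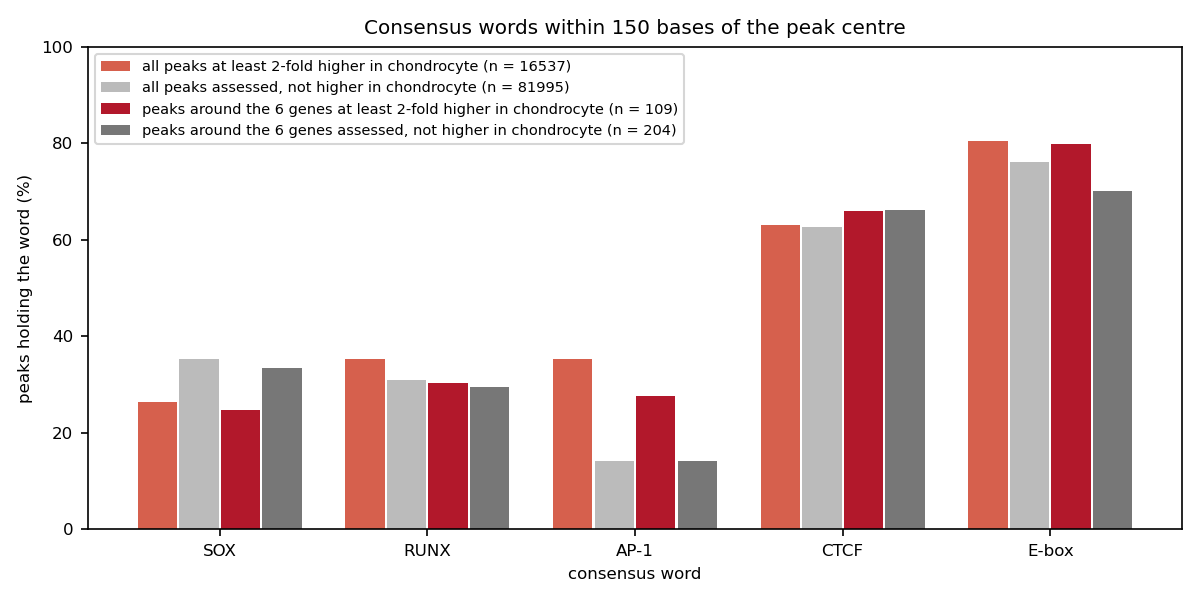
Share of peaks that hold a consensus word within 150 bases of their centre, for peaks higher in chondrocyte nuclei and other assessed peaks, over all peaks and around the 6 genes. The AP-1 bars are higher in chondrocyte-higher peaks (35.4% and 27.5%) than in the others (14.2% in both), and the SOX bars are lower.

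The chondrocyte nuclei were not uniform. They were divided at 5000 CPM of Col10a1, a collagen of hypertrophic cartilage, a limit set after the values were seen and with 2 nuclei between 4000 and 7000 CPM. In the 17 nuclei above it, Sox9 RNA was 210 CPM (161 to 269), against 596 CPM (527 to 672) in the 28 below, and Trps1 RNA was 1629 CPM (1486 to 1781) against 3285 CPM (3119 to 3457). Sox5 RNA was 450 CPM (377 to 534) against 659 CPM (586 to 739), and Sox6 RNA 396 CPM (328 to 475) against 453 CPM (392 to 520), with overlapping intervals for Sox6. Foxa3 RNA was 67.7 CPM (41.4 to 105) and 101 CPM (73.5 to 135), with overlapping intervals. Indian hedgehog (Ihh), a signal made by prehypertrophic and hypertrophic cells, was 261 CPM (206 to 326) above the limit and 139 CPM (107 to 178) below it. Mmp13 was 186 CPM above and 58.3 CPM below, Ibsp 1893 and 78.4 CPM, and Matn1 1239 CPM (1116 to 1373) and 760 CPM (681 to 845). Col2a1 was lower above the limit, at 25186 CPM against 33416 CPM. Acan was 5001 CPM (4749 to 5263) above and 4699 CPM (4500 to 4904) below, with overlapping intervals. The peaks around Sox9 held 846 CPM (791 to 904) above and 1039 CPM (994 to 1086) below, and those around Nkx3-2 held 162 CPM (138 to 188) and 247 CPM (225 to 270). Around Sox5 the values were 504 CPM (462 to 549) and 531 CPM (498 to 564), so they overlapped although the RNA intervals did not.

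Of 18 further regulators of cartilage, 12 were assessed in chondrocyte nuclei, of which 4 were at least 2-fold higher and 3 at least 2-fold lower, beside 15.6% and 18.7% of all genes. Their median log2 ratio was 0.04, against 0.02 for all genes. Ihh was 44.9-fold higher (26.7 to 80.8) from 139 UMIs. Wwp2, a ubiquitin ligase gene that is a target of SOX9 and hosts a cartilage microRNA, was 6.38-fold higher (5.50 to 7.40), Pth1r, the receptor of parathyroid hormone and its related peptide, 4.78-fold higher (4.40 to 5.20), and Runx3, a partner of Runx2 in hypertrophic maturation, 3.16-fold higher (2.42 to 4.11). Runx3 was 127 CPM (102 to 155) in chondrocyte and 100 CPM (80.4 to 123) in reticular nuclei, whose intervals overlapped, and 22.4 CPM in osteoblast nuclei. Dlx6, Shox2 and Zfp219 were at ratios of 0.272 (0.0723 to 0.726), 0.490 (0.308 to 0.746) and 0.431 (0.0849 to 1.36), the last from 3 UMIs. Shox2 and Foxa2 were singled out after their values were seen. Foxa2 was too shallow to be assessed, with 23 UMIs in chondrocyte nuclei and 1 in the other stromal classes.

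Few genes that share the windows were deep enough to be assessed. Around Sox6, 2 of 4 assessed neighbours were higher in chondrocyte nuclei, Nucb2 at 3.39-fold (2.22 to 5.13) and the ribosomal protein gene Rps13 at 2.18-fold (1.87 to 2.53). Around Foxa3, 2 of 14 were higher and 3 lower, near the 15.6% and 18.7% of all genes, with Ppp1r13l, an inhibitor of p53, at 9.31-fold (4.78 to 18.8). Fosb, a subunit of AP-1, held 778 CPM in chondrocyte, 354 in osteoblast, 978 in reticular, 624 in mural and 226 in blood nuclei. Mill2 was highest in reticular nuclei, with 47.8 CPM and a ratio of 13.5 to the other stromal classes. Both assessed neighbours of Nkx3-2, Rab28 and Bod1l, were within 2-fold in chondrocyte nuclei, at 1.80 (1.26 to 2.53) and 0.769 (0.526 to 1.09).

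Several sizes moved by more than 1.5-fold with the choice of nuclei, peaks, measure or background. The Sox5 accessibility ratio, 2.19 on the log2 scale, was 3.07 with only the 50 peaks that have no nearer gene and 1.40 as the share of nuclei with a count after thinning to 5000 counts. By the same thinned share the Sox9 ratio fell from 1.27 to 0.31 and the Sox6 ratio from 0.99 to 0.24. This measure was near its ceiling in both windows, with 97.6% of chondrocyte nuclei holding a count in each. In the other stromal classes the share was 69.7% to 82.5% around Sox9 and 75.8% to 90.2% around Sox6, so a 2-fold ratio could not be reached. The log2 RNA ratio of Sox9 was 3.97, and 5.07 after the free RNA profile was taken off, while that of Foxa3 was 5.70 and then 7.26. The log2 RNA ratio of Sox5 in mural nuclei was 2.19, and 3.90 with the 9 mural nuclei of at most 10% mitochondrial UMIs, whereas that in chondrocyte nuclei was 4.06 and then 3.39. The directions were the same in each case.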

How the data were processed

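RNA and ATAC were read from the same nuclei, in 1 library of each kind. The authors deposited raw counts, UMIs per gene and ATAC counts per peak, in 1 matrix with shared barcodes. The submitters' processing notes name mm10 as the build and Cell Ranger ARC (2.0.0) as a tool. The matrix has 1 set of peaks for all barcodes, how it was called is not given in the sources used here, and 96.4% of the matched gene starts lay within 1 kb of those in GENCODE. A separate list of peak intervals was not used here. Nothing in the sources used here says how many animals were pooled.

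Nuclei had at least 500 UMIs and 1000 ATAC counts and at most 20% mitochondrial UMIs. A marker was positive at 2 or more UMIs with a Poisson tail under 0.01 against the free RNA of low barcodes, and 3 positive markers gated a nucleus. The members and gene lists were chosen with earlier results of these data known, and this scoring rule was set after the RNA had been examined. Counts were summed per class and scaled to counts per 1000000 (CPM). Ratios set a class against the other stromal classes of chondrocyte, osteoblast, reticular and mural (blood against all 4), with exact conditional binomial intervals. Calls added 0.5 counts to both sides, needed at least 5 expected counts and meant a ratio past 2-fold. The limit for a count of 0 was 3 counts.

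Promoters ran from 1 kb upstream to 100 bases downstream of any GENCODE start, and a peak over several features was given 1 of them. Distances run from the upstream end of the gene position in the files. Sequence was at hand for 203502 peaks. Named peaks were the promoters and, per gene, the peak of most chondrocyte counts and those of highest ratio in each class (up to 3 in chondrocyte nuclei and, around Sox5, in mural nuclei). Named genes were the 6, up to 2 neighbours per window by chondrocyte CPM and 2 by ratio, and up to 6 regulators by ratio. Some named peaks are not reported here. The scripts were tested on simulated data and used Python 3.11.15, numpy 2.4.6, pandas 2.3.3, scipy 1.17.1, pysam 0.24.0 and matplotlib 3.10.9. Alternatives changed the mitochondrial limit, gate, depth, deepest nuclei, comparison classes, window, count minimum, weighting of nuclei and free RNA.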

Additional observations from a re-analysis of the deposited data

How the results depend on the processing

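The share of members higher in chondrocyte nuclei was above that of all peaks in every alternative run, but its size moved: 12.2% (all peaks 7.33%) with at most 10% mitochondrial UMIs, which left 12 chondrocyte nuclei, and 8.99% (5.10%) with 20 expected counts. The share lower in chondrocyte nuclei was 27.8% (37.2%) with the first of these limits and 8.06% (29.9%) with only peaks nearest to the named gene, where 8.75% (20.1%) were higher in reticular nuclei. The share higher in mural nuclei was 4.65% (3.89%) with at most 10% mitochondrial UMIs, 5.26% (5.88%) with a stricter gate, 6% (7.98%) without the deepest nuclei, 2.13% (1.37%) with 20 expected counts and 20.9% (23.4%) with no minimum, so it lay above or below that of all peaks by setting. Thinned shares of nuclei with a count left 1 window at least 2-fold higher in place of 2, but around Sox9 this measure was near its ceiling, at 97.6% of chondrocyte nuclei. The other 55 recomputed shares and counts of windows or genes stayed within 1.5 times the reported value. Peaks nearest to the named gene gave no value for Foxa3, which has none. No paired analysis was possible because there was 1 library of each kind. The 45 chondrocyte and 37 mural nuclei limit the depth, so most member peaks were not assessed in these classes.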
